A study of Homo sapiens with 14 samples.

Results

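The comparison asked for which miRNAs the effect of grape proanthocyanidins (PA) grew or shrank between a short and a long exposure. It was made in PANC-1, a widely used line grown from a human pancreatic ductal adenocarcinoma, cultured in DMEM with fetal bovine serum. Cells received PA at 20 µg/ml or the solvent DMSO, and small RNA was sequenced. The groups were DMSO 3 h, PA 3 h, DMSO 24 h and PA 24 h, with 2 libraries each (A and B). These 8 libraries were taken from the 14 of the series by their labels, but the comparison itself was chosen with earlier results of these data known. The DMSO 0 h libraries serve below only for orientation. PA is a mixture of condensed tannins, the DMSO concentration is not given in the sources used here, and the results come from 1 cell line, so each group is a culture condition of that line. The series' description mentions a biological replicate but does not say whether A and B were independent cultures, so the p-values reflect only the scatter among these libraries, part of which may be technical.

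A mature miRNA is a short RNA that guides an Argonaute protein to messenger RNAs, mostly by pairing of its seed, bases 2 to 8, with a site in the target. miRNAs with the same seed form a family that can recognise overlapping sets of targets. Neighbouring miRNAs are often cut from 1 long primary transcript, so that a cluster such as miR-17-92 or the imprinted group at 14q32 is transcribed together, while each hairpin yields a 5p and a 3p arm that are counted separately.

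Of the 8 named miRNAs whose PA effect differed between the times, 7 had a mature sequence in RefSeq (GRCh38.p14), and they are shown first because the main result rests on them. Capitals mark the seed, bases 2 to 8 from the 5′ end.
miR-99a-5p: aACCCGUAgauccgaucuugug
miR-154-3p: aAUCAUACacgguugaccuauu
miR-3182: gCUUCUGUaguguaguc
miR-4310: gCAGCAUUcauguccc
miR-6069: gGGCUAGGgccugcugccccc
miR-372-5p: cCUCAAAUguggagcacuauucu
miR-6750-5p: cAGGGAACagcugggugagcugcu
No seed occurs in more than 1 of these 7 miRNAs. miR-99a-5p lies at chr21:16539101-16539122 (plus strand) in an intron of the long non-coding RNA gene MIR99AHG, and miR-154-3p at chr14:101059805-101059826 (plus strand), where no gene other than miRNA genes is annotated. Introns of protein-coding genes on the same strand hold miR-3182 (CDH13, chr16:83508349-83508365), miR-4310 (SPTBN5, chr15:41866505-41866520) and miR-6750-5p (ATG2A, chr11:64898409-64898432). miR-6069 (chr22:35336768-35336788) lies opposite an intron of TOM1, and miR-372-5p (chr19:53787895-53787917) opposite an exon of the lincRNA AC008753.3. The eighth named miRNA, miR-549a, is named only.

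Members of 2 further seed families are shown because the gene groups described below turn on them. The seed ACCCGUA is shared by 3 miRNAs, which are the whole family in RefSeq, and miR-99a-5p differs from miR-100-5p by the single substitution U16A (position counted from the 5′ end of miR-99a-5p).
miR-99b-5p: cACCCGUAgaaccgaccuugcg
miR-100-5p: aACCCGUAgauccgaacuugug
The seed AAAGUGC joins members of the miR-17-92 cluster and its paralogs, which descend from duplicated clusters.
miR-17-5p: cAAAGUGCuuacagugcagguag
miR-20a-5p: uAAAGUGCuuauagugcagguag
miR-93-5p: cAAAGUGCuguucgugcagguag

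Total counts of the 8 libraries ran from 1236935 (PA 24 h B) to 3111014 (PA 3 h B), and 741 of 2848 entries passed the filter on low counts, 638 with a miRNA name and 103 unnamed, known only by a chromosome-like label such as chr8_19924. Levels below are CPM, counts divided by the TMM-scaled library size and multiplied by 1e+06. TMM factors were 1.11 and 1.09 for DMSO 24 h, 0.895 and 0.963 for PA 24 h, and 0.974 to 1.01 at 3 h, so the scaling acts on the 24 h comparison. Unnamed entries took 3.17% of PA 24 h B and 1.74% to 1.97% of the other 7 libraries. The Spearman correlation of A with B was 0.954 to 0.980 within groups.

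The PA effect differed between 24 h and 3 h for 12 of the 741 entries (1.62%) by edgeR's quasi-likelihood test of the difference of differences at a Benjamini-Hochberg adjusted p under 0.05. It was higher at 24 h for 11 (1.48%) and lower for 1 (0.135%). Of the 12, 8 were named miRNAs and 4 unnamed entries. At an unadjusted p under 0.05 there were 116 entries (15.7%), 75 higher (10.1%) and 41 lower (5.53%). The split depended on the scaling: with total counts in place of TMM, 10 entries passed, 5 higher and 5 lower, and 6 of them were among the 12. The median difference over all entries was 0.07 on the log2 scale with TMM and -0.20 with total counts, and values for groups of miRNAs are read against it. With TMM, differences were above 0 in 54.5% of all entries and in 64.6% of those with a mean of 1000 CPM or more. In all 12 the library-by-library PA effects at 24 h did not overlap those at 3 h, as was so for 216 of the 741 entries (29.1%).

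PA against DMSO within a time showed where these differences arose, with the caution that the tests share libraries with the difference itself. At 24 h 83 entries passed (11.2%), 59 higher (7.96%) and 24 lower (3.24%) with PA. At 3 h 1 entry passed (0.135%), the unnamed chr8_19924, which was higher with PA. All 12 entries passed at 24 h, with adjusted p of at most 0.0146. At 3 h the smallest adjusted p among the 11 of them other than chr8_19924 was 0.687. No entry that passed at 3 h had a smaller effect at 24 h, because the 1 such entry gained. For the remaining entries that passed at 24 h, the change in effect between the times did not pass the test, so a difference from 3 h is not shown for them.

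**Figure D1:**
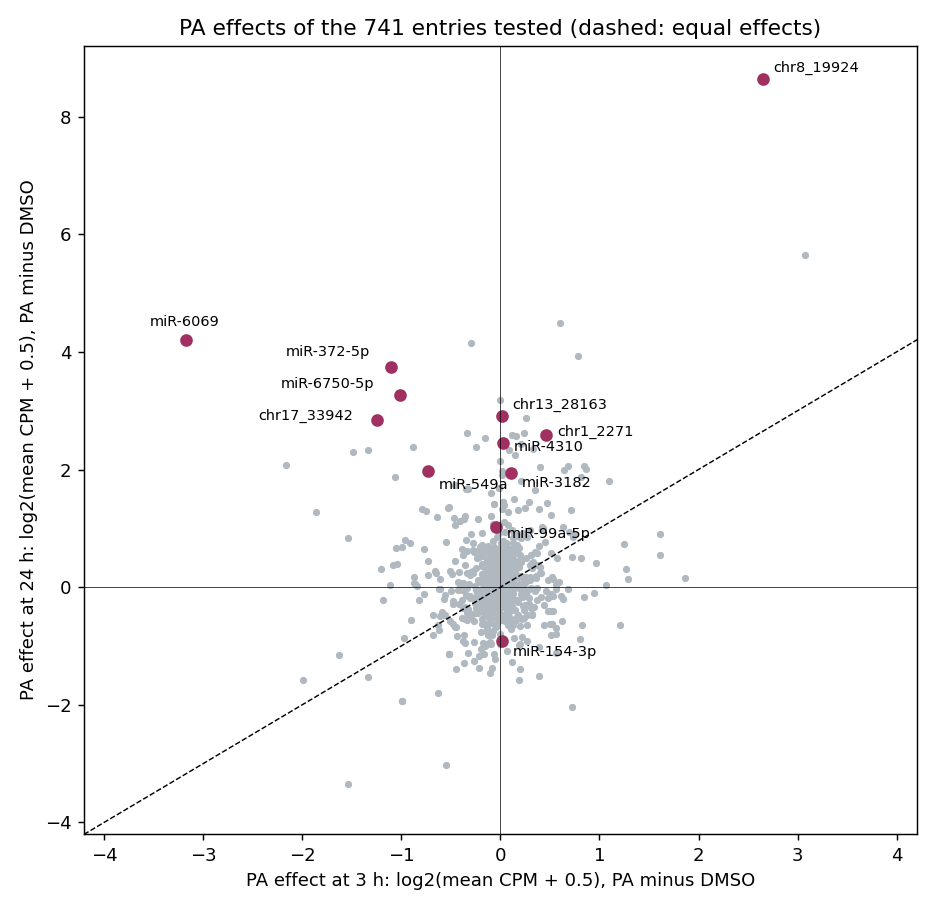
PA effect at 3 h (x axis) against the PA effect at 24 h (y axis), each the difference between PA and DMSO in log2(mean CPM + 0.5), for the 741 entries tested; the dashed line marks equal effects and the labelled points are the 12 that passed the test of the difference. Of these, 11 lie above the line and miR-154-3p below it. In the reported fit chr8_19924 alone had a positive effect that passed the test at both times.

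The 3 entries that passed in the difference under every setting tried were all unnamed. Among the 10 entries without a group at 0 counts, chr8_19924 had the largest difference. chr8_19924 was at 85.5 and 33.0 CPM in DMSO 3 h (A and B), 451 and 298 in PA 3 h, 23.8 and 20.2 in DMSO 24 h, and 7124 and 10790 in PA 24 h. PA libraries were above DMSO libraries at both times without overlap, and the gap widened. The log2 PA effect was 2.62 ± 0.37 (SE of the edgeR fit) at 3 h and 8.66 ± 0.48 at 24 h, a difference of 6.05 ± 0.56 (adjusted p = 0.000541). What RNA this entry is stays undescribed, as its sequence was not used here.

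chr13_28163 showed no such early gap. Its levels were 116 and 106 CPM in DMSO 3 h, 90.6 and 133 in PA 3 h, 52.4 and 33.8 in DMSO 24 h, and 303 and 347 in PA 24 h. The 3 h groups overlapped, while both PA 24 h libraries were above all others and both DMSO 24 h libraries below all others. The difference was 2.89 ± 0.34 (adjusted p = 0.00157).

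For chr17_33942 the levels were 23.0 and 10.2 CPM in DMSO 3 h, 6.94 and 6.52 in PA 3 h, 5.86 and 2.88 in DMSO 24 h, and 37.7 and 31.0 in PA 24 h. Here PA lay under DMSO at 3 h and over it at 24 h, although the log2 value at 3 h, -1.34 ± 0.45, did not pass the test. The difference was 4.30 ± 0.65 (adjusted p = 0.0107). chr1_2271 stood at 30.5 and 21.6 CPM in DMSO 3 h, 38.4 and 33.9 in PA 3 h, 9.38 and 6.18 in DMSO 24 h, and 55.1 and 42.8 in PA 24 h. Its PA libraries were above its DMSO libraries at both times, by a small step at 3 h, and the difference was 2.20 ± 0.42 (adjusted p = 0.0351). Over the 103 unnamed entries tested, the median difference was 0.34 and 4 passed, against 0.04 and 8 among the 638 named miRNAs.

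miR-99a-5p, of a family known for repressing the growth kinase mTOR, was the most uniform of the named gains. It stood at 179 and 198 CPM in DMSO 3 h, 169 and 196 in PA 3 h, 147 and 131 in DMSO 24 h, and 278 and 288 in PA 24 h. Both PA 24 h libraries lay above the other 6, and the 3 h groups overlapped. The log2 PA effect was -0.04 ± 0.15 at 3 h and 1.02 ± 0.15 at 24 h, a difference of 1.07 ± 0.22 (adjusted p = 0.0457). Its sequence is 1 base from that of miR-100-5p, which has the same length, and in each library its CPM amounted to between 0.147% and 0.224% of that of miR-100-5p. This share was 0.192% and 0.224% in PA 24 h, 0.166% and 0.147% in DMSO 24 h, and 0.172% to 0.194% at 3 h. Whether misread miR-100-5p contributes to the miR-99a-5p count was not tested. In the same primary transcript, let-7c-5p had a difference of 0.50 ± 0.49 (adjusted p = 0.711; chosen by its position, after values were seen).

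miR-154-3p was the only entry with a lower PA effect at 24 h that passed the test. Its levels were 345 and 348 CPM in DMSO 3 h, 365 and 334 in PA 3 h, 554 and 530 in DMSO 24 h, and 307 and 267 in PA 24 h. The PA 24 h libraries were the lowest of the 8 and the DMSO 24 h libraries the highest. The log2 PA effect was 0.01 ± 0.14 at 3 h and -0.91 ± 0.14 at 24 h, and the difference was -0.93 ± 0.19 (adjusted p = 0.0479). The other arm of its hairpin, miR-154-5p, was far less abundant, at a mean of 8.23 CPM, with a difference of -0.73 ± 0.58 (adjusted p = 0.672). The only other miRNA in RefSeq with its seed AUCAUAC, miR-487a-3p, lies in the same cluster and had a difference of -0.36 ± 0.30 (adjusted p = 0.682). Both were chosen by hairpin or seed, after values were seen, and neither passed.

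miR-3182 and miR-4310 gained with a wide spread between the PA 24 h libraries. miR-3182 was at 75.8 and 93.9 CPM in DMSO 3 h, 91.0 and 91.9 in PA 3 h, 70.7 and 73.8 in DMSO 24 h, and 189 and 370 in PA 24 h. Both PA 24 h values exceeded every other library, with B well above A, and the difference was 1.82 ± 0.39 (adjusted p = 0.0479). Without PA 24 h B it was 1.28, and without PA 24 h A it was 2.13. miR-4310 was at 95.2 and 75.1 CPM in DMSO 3 h, 85.3 and 87.7 in PA 3 h, 29.7 and 32.6 in DMSO 24 h, and 102 and 242 in PA 24 h. Its DMSO 24 h libraries were the lowest of the 8, and the difference was 2.42 ± 0.48 (adjusted p = 0.0419). Without PA 24 h B the difference was 1.71. PA 24 h B, which held the highest values of both miRNAs, was also the shallowest library and the one with 3.17% unnamed counts. The unnamed chr8_19924, itself a call, held 12859 of that library's 1236935 counts. The part of depth and of the unnamed share in the results was not tested.

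The other 4 named gains rested on few counts. miR-549a was at 10.4 and 11.4 CPM in DMSO 3 h, 6.53 and 6.19 in PA 3 h, 8.21 and 9.07 in DMSO 24 h, and 28.6 and 42.0 in PA 24 h. PA 24 h alone was high, and the difference was 2.77 ± 0.50 (adjusted p = 0.0279). miR-6750-5p was at 8.55 and 24.5 CPM in DMSO 3 h, 4.08 and 11.7 in PA 3 h, 1.17 and 1.65 in DMSO 24 h, and 13.1 and 22.7 in PA 24 h. Its DMSO 24 h values came from 3 and 4 counts, the 3 h groups overlapped, and the difference was 4.56 ± 0.98 (adjusted p = 0.0479).

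miR-372-5p is an arm of a hairpin from the miR-371-373 cluster, known from embryonic stem cells and germ cell tumours. It had 12 and 9 counts in DMSO 3 h, 4 and 7 in PA 3 h, 0 and 0 in DMSO 24 h, and 10 and 10 in PA 24 h. PA lay under DMSO at 3 h, and DMSO 24 h alone was at 0. With a floor of 3 counts over the DMSO 24 h group, PA 24 h was at least 8.95-fold higher and the log2 difference of effects was at least 4.41 (adjusted p = 0.0479). miR-6069 had 17 and 3 counts in DMSO 3 h, 0 and 0 in PA 3 h, 2 and 0 in DMSO 24 h, and 27 and 25 in PA 24 h. Its counts were highest in PA 24 h and at 0 in PA 3 h (adjusted p = 0.0249), and no fold is given because 2 of the 4 groups were at or under the floor. Among the 12 entries, 7 had a mean level under 100 CPM.

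**Figure D2:**
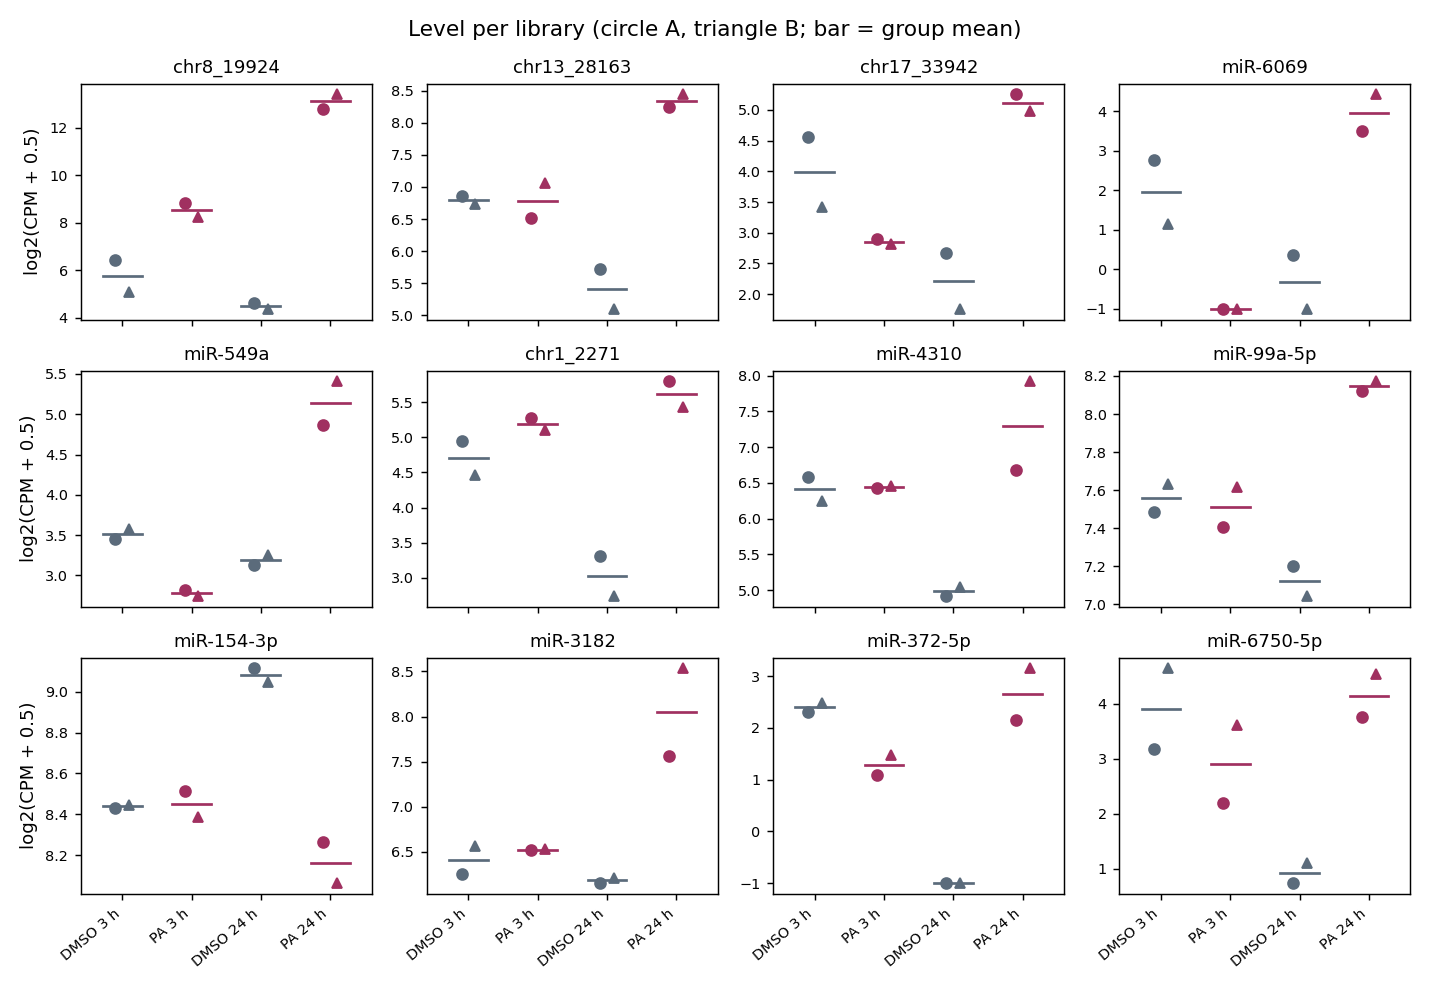
Level of each of the 12 entries that passed, as log2(CPM + 0.5), in the 2 libraries of each group (circle A, triangle B); bars are the mean of the 2 log2 values and each panel has its own axis. In 11 panels PA 24 h stands above DMSO 24 h, in miR-154-3p below it, and values at -1 are libraries with 0 counts.

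Each difference is the change over time in the PA arm minus that in the DMSO arm. For all 11 gains the PA arm was higher at 24 h than at 3 h and the DMSO arm lower, as values without a test. Selection for a large positive difference favours such opposite signs, and their share over all entries was not counted. For miR-6069 and miR-372-5p 1 arm includes a group at 0 counts. The shift in the DMSO arm was the larger in 4 of the 11 and that in the PA arm in 7. For miR-4310 the log2 change over time was 0.96 ± 0.32 with PA and -1.46 ± 0.35 with DMSO. For chr1_2271 it was 0.45 ± 0.27 with PA and -1.75 ± 0.32 with DMSO, and for miR-6750-5p 1.09 ± 0.60 and -3.46 ± 0.76. For miR-549a the PA arm led, with 2.44 ± 0.34 against -0.33 ± 0.36, and likewise for miR-3182 with 1.60 ± 0.27 against -0.23 ± 0.28. The DMSO value of both was smaller than its SE. The single loss, miR-154-3p, had the opposite form, -0.28 ± 0.14 with PA and 0.64 ± 0.14 with DMSO.

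Levels in DMSO 0 h, scaled together with the other 8 libraries, place these shifts. The mean at 0 h was 160 CPM for miR-4310, 139 for chr13_28163, 49.1 for chr1_2271 and 22.5 for miR-6750-5p, in each case above both DMSO 24 h libraries. In miR-4310 and chr1_2271 the PA 24 h libraries lay on either side of the 0 h mean on this scale, at 103 and 245 CPM and at 55.5 and 43.4 CPM. In chr8_19924 they lay far above it, at 7178 and 10950 CPM against a mean of 112.

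**Figure D3:**
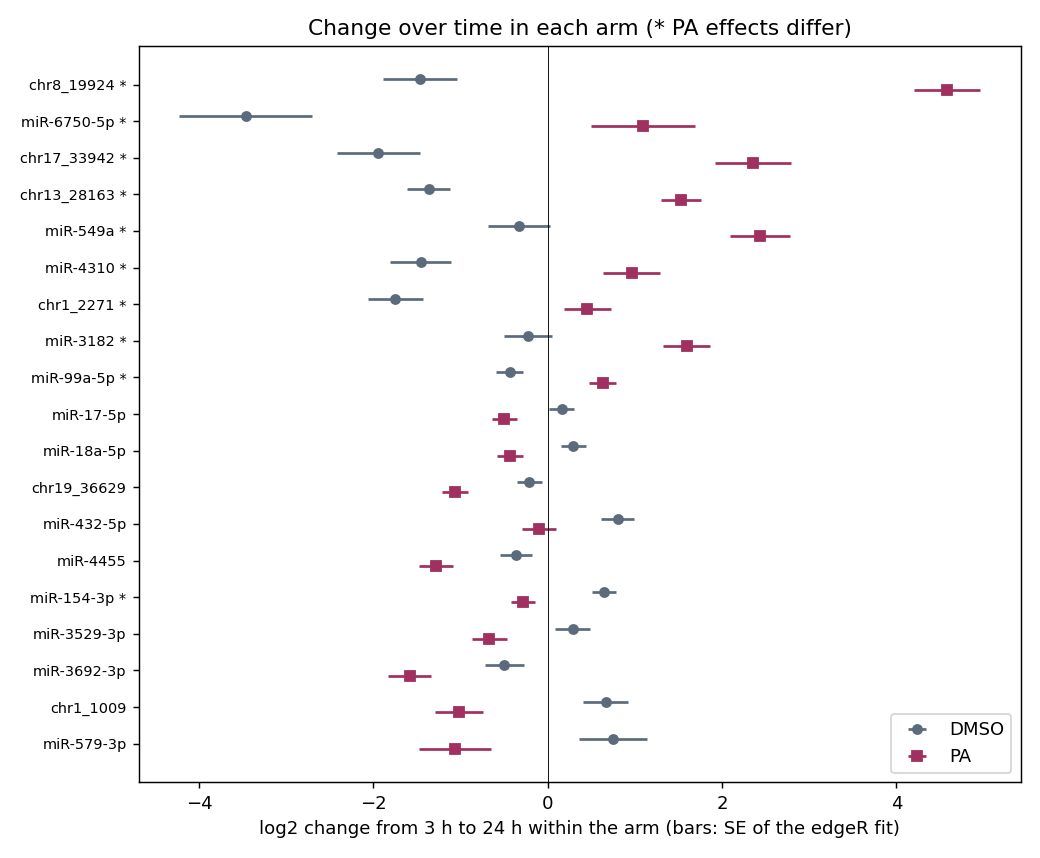
Log2 change from 3 h to 24 h within the DMSO arm (circles) and the PA arm (squares) for the named entries without a group at 0 counts in both libraries, with SE bars from the edgeR fit; miR-6069 and miR-372-5p are left out. Asterisks mark entries that passed the test of the difference. In the 9 gains shown the PA arm lies to the right of the DMSO arm by definition of a gain, and the DMSO arm is below 0 throughout.

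Among entries with a lower PA effect at 24 h, 9 more had the smallest p without passing. chr1_1009 had a difference of -1.68 ± 0.38 (adjusted p = 0.0613) and chr19_36629, at a mean of 1096 CPM, one of -0.85 ± 0.21 (adjusted p = 0.0837). The others were miR-18a-5p at -0.73, miR-3529-3p at -0.96, miR-4455 at -0.91, miR-432-5p at -0.90, miR-17-5p at -0.66, miR-3692-3p at -1.09 and miR-579-3p at -1.81, with adjusted p of 0.125 to 0.154. miR-579-3p depended on single libraries: its difference was -3.26 (adjusted p = 0.00476) without PA 24 h A and -1.30 without PA 24 h B.

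The miR-17-92 cluster and its paralogs, transcribed under MYC and known for promoting proliferation, had differences below 0 in 18 of 19 members tested (of 28 in the table), and none passed. Their median was -0.42 (-0.69 with total counts) beside 0.07 over all entries, of which 54.5% had differences above 0. miR-17-5p was at 2174 and 2164 CPM in DMSO 3 h, 1969 and 2138 in PA 3 h, 2461 and 2393 in DMSO 24 h, and 1639 and 1263 in PA 24 h. Both PA 24 h libraries were the lowest of the 8, and the difference was -0.66 ± 0.20 (adjusted p = 0.146). miR-18a-5p, of the same transcript, was at 276 and 236 CPM in DMSO 3 h, 242 and 243 in PA 3 h, 315 and 314 in DMSO 24 h, and 190 and 166 in PA 24 h, the same order of groups. Both depended on single libraries. The difference of miR-17-5p was -0.97 without PA 24 h A and -0.47 without PA 24 h B, and that of miR-18a-5p -0.94 and -0.63.

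The most abundant members had differences of -0.69 ± 0.26 (miR-20a-5p), -0.44 ± 0.20 (miR-93-5p), -0.06 ± 0.49 (miR-19b-3p) and -0.48 ± 0.20 (miR-92a-3p). At 24 h 6 of the 19 members tested fell with PA, beside 3.24% of all entries: miR-106a-5p (-0.90), miR-18a-5p (-0.81), miR-20a-5p (-0.78), miR-17-5p (-0.74), miR-92a-3p (-0.63) and miR-93-5p (-0.62). At 3 h none passed. The 5 members tested with the seed AAAGUGC spanned -0.15 (miR-106b-5p) to -0.69 (miR-20a-5p) in the difference, and the log2 PA effect of miR-106b-5p at 24 h was -0.17 (adjusted p = 0.437). miR-106a-5p and miR-106b-5p were named after their values were seen. miR-17-5p and miR-106a-5p differ by the single substitution C1A, so their reads may be split between them. The summed level of the group was 22108 and 22677 CPM in DMSO 3 h, 20791 and 18848 in PA 3 h, 24548 and 24885 in DMSO 24 h, and 19322 and 13445 in PA 24 h. PA was under DMSO at both times without overlap, by more at 24 h, and PA 24 h A was within the range of PA 3 h.

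miR-7, which represses the EGF receptor, and miR-3529, encoded opposite a miR-7 gene, had 3 members tested, all with differences below 0 and a median of -0.81 (-1.09 with total counts). miR-3529-3p was at 1891 and 2022 CPM in DMSO 3 h, 1932 and 1962 in PA 3 h, 2332 and 2446 in DMSO 24 h, and 1530 and 909 in PA 24 h. It fell with PA at 24 h (-0.97 ± 0.20, adjusted p = 0.0131), as did miR-7-5p (-0.94, adjusted p = 0.0136), while the differences of -0.96 ± 0.28 and -0.81 ± 0.28 did not pass (adjusted p = 0.138 and 0.179). For miR-3529-3p the difference was -1.49 (adjusted p = 0.000833) without PA 24 h A and -0.62 without PA 24 h B. Since the use of strand in counting is not given, reads from the 2 opposite genes cannot be told apart.

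In the imprinted 14q32 cluster, a maternally expressed group that includes miR-154-3p, 69 of 92 entries were tested and 1 passed. Of its differences 42 were below 0, while 54.5% of those of all entries were above 0. The median of the cluster was -0.12 (-0.39 with total counts). At an unadjusted p under 0.05 there were 10 lower and 2 higher members, beside 5.53% lower and 10.1% higher among all entries. The median change over time in the cluster was 0.33 in the DMSO arm and 0.11 in the PA arm, against -0.03 and 0.05 over all entries. Its most abundant members had differences of -0.22 ± 0.21 (miR-136-3p), -0.43 ± 0.17 (miR-369-3p), 0.07 ± 0.22 (miR-411-5p) and -0.05 ± 0.17 (miR-127-3p), on both sides of 0. The 2 higher members, named after their values were seen, were miR-409-5p (0.70 ± 0.23) and miR-380-5p (1.30 ± 0.42), neither of which passed (adjusted p = 0.157 and 0.156).

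On the side of gains, the miR-99/100 and miR-125 families had differences above 0 in 8 of 9 members tested, beside 54.5% of all entries. Of these members 1 passed (miR-99a-5p), and their median was 0.35 (0.08 with total counts). miR-100-5p, among the most abundant miRNAs of these cells, was at 100470 and 102100 CPM in DMSO 3 h, 98256 and 111380 in PA 3 h, 88129 and 89226 in DMSO 24 h, and 144530 and 128520 in PA 24 h. PA 24 h was highest and DMSO 24 h lowest, without overlap with the 3 h libraries. It rose with PA at 24 h (0.62 ± 0.11, adjusted p = 0.00637), and the difference of 0.57 ± 0.15 did not pass (adjusted p = 0.0920). miR-99b-5p, transcribed from another cluster, had a like value of 0.64 ± 0.17 (adjusted p = 0.0913). Its CPM was 15993 and 14450 in PA 24 h and between 8779 and 9901 in the other 6 libraries. miR-125b-5p and miR-125a-5p, homologs of the worm developmental timer lin-4, had differences of 0.35 ± 0.18 and 0.44 ± 0.17.

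The miR-23/27/24 clusters, 2 paralogous clusters of abundant miRNAs, had differences above 0 in 9 of 11 members. The share above 0 was 54.5% over all entries and 64.6% over those with a mean of 1000 CPM or more. No member of these clusters passed, and their median was 0.39 (0.12 with total counts). At 24 h 4 of the 11 members rose with PA, beside 7.96% of all entries. miR-27a-3p was at 72451 and 69959 CPM in DMSO 3 h, 66409 and 74783 in PA 3 h, 65875 and 63650 in DMSO 24 h, and 103850 and 93341 in PA 24 h. Both PA 24 h libraries were above all others, and the difference was 0.62 ± 0.15 (adjusted p = 0.0837). miR-27b-3p differs from it by the substitution C19U alone (position in miR-27a-3p) and had a difference of 0.39 ± 0.15 (adjusted p = 0.223). miR-24-3p and miR-23a-3p had 0.41 ± 0.16 and 0.30 ± 0.19. The summed level of these clusters was 209470 and 190850 CPM in PA 24 h and between 139010 and 161440 in the other 6 libraries.

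miRNAs embedded in the HOX gene clusters had differences above 0 in 6 of 9 members tested, beside 54.5% of all entries. At 24 h 2 of these members rose with PA and 1 fell, beside 7.96% and 3.24% of all entries. The 9 differences had a median of 0.39 (0.10 with total counts) and a minimum of -0.90, and none of the HOX members passed. miR-10a-5p, the most abundant of them, was at 26472 and 28913 CPM in DMSO 3 h, 24839 and 25780 in PA 3 h, 23690 and 25933 in DMSO 24 h, and 46198 and 30009 in PA 24 h, with a difference of 0.75 ± 0.24 (adjusted p = 0.156). miR-7704, which lies at chr2:176188843-176188861 in exons of HOXD1 and, on the other strand, of HAGLR, is named after its values were seen. It was at 11.2 and 4.55 CPM in DMSO 3 h, 93.5 and 46.6 in PA 3 h, 4.69 and 6.59 in DMSO 24 h, and 183 and 430 in PA 24 h. PA was above DMSO at both times without overlap. The log2 PA effect was 3.06 ± 0.55 at 3 h (adjusted p = 0.0890) and 5.74 ± 0.57 at 24 h (adjusted p = 0.00037), and the difference of 2.69 ± 0.84 did not pass (adjusted p = 0.156).

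Another pair of groups lay on the same side. The cluster that encodes miR-182, miR-96 and miR-183, known from sensory cells, had a median of 0.48 over 4 members (0.20 with total counts), led by miR-183-5p at 0.70 ± 0.26 and miR-96-5p at 0.68 ± 0.37. The X-linked miR-188 to miR-660 cluster in CLCN5 had a median of 0.13 (-0.15 with total counts, a turn of sign that the median of all entries shared), and 3 of its 13 members rose with PA at 24 h, beside 7.96% of all entries. Of both groups none passed in the difference.

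In the other groups no member passed in the difference, with 1 exception on chromosome 19. The let-7 and miR-98 family, regulators of differentiation, had a median of -0.02 over 19 members, and let-7i-5p, its most abundant, a difference of 0.14 ± 0.18. The oncogenic miR-21-5p, the most abundant miRNA in these libraries, had 0.12 ± 0.14, and miR-21 with miR-22 a median of 0.09 (-0.18 with total counts, again as the median of all entries turned). miR-146a-5p, induced by NF-kB, had 0.01 ± 0.18, and the collagen-repressing miR-29a-3p 0.00 ± 0.14. The miR-30 family had a median of 0.14 (-0.13 with total counts), the miR-15/16 family -0.15, and miR-29 -0.20. The epithelial miR-200 family was scarce, summing to 63.5 to 87.6 CPM over its 9 entries, with a median of 0.34 over the 5 tested. Of the chromosome 19 and miR-371-373 clusters 11 of 60 entries were tested, 1 passed (miR-372-5p), and the median was -0.30.

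Single arms stood out within a few groups at 24 h, in both directions, where 7.96% of all entries rose with PA and 3.24% fell. In the miR-181 family 1 of 8 members tested fell with PA, and in the miR-191 and miR-425 cluster 1 of 4. miR-192-5p, a p53-induced miRNA, rose with PA at 24 h (0.51, adjusted p = 0.0285), with a difference of 0.54 ± 0.18 (adjusted p = 0.165) in a p53-linked group whose median was 0.32. miR-221-5p rose at 24 h (0.69, adjusted p = 0.0136), with a difference of 0.63 ± 0.20 (adjusted p = 0.156), whereas its partner arm miR-221-3p, a repressor of the cell cycle inhibitor p27, had 0.13 ± 0.21. miR-30d-5p rose at 24 h (0.49, adjusted p = 0.0224), with a difference of 0.49 ± 0.17 (adjusted p = 0.165).

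Further abundant miRNAs had differences of 0.44 ± 0.19 (miR-191-5p), 0.42 ± 0.22 (miR-181a-5p), 0.11 ± 0.20 (miR-210-3p, induced by hypoxia) and 0.09 ± 0.19 (miR-148b-3p). The counts of miR-103a-3p and miR-103b were identical in every library, so they are 1 measurement, with a difference of 0.11 ± 0.24. miR-33a-5p, encoded in the sterol regulator gene SREBF2, had 0.63 ± 0.32 (adjusted p = 0.401). The median of the group of miR-454, miR-301 and miR-130 was -0.02, with its 8 members between -0.23 and 0.19.

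Markers of other sources of RNA are given as summed levels. The haematopoietic markers summed to 1.56 to 4.55 CPM and the acinar and islet markers to 2.06 to 9.80 CPM, with none tested. Red blood cell markers summed to 296 to 563 CPM, with the 2 highest sums in PA 24 h; nearly all of it was miR-486-5p, while the defining miR-451a had 13 counts over the 8 libraries and was at 0 in 4 of them. Muscle, liver and neuron markers summed to 1768 to 2611 CPM, mostly miR-9. Of the arms of miR-124, miR-124-5p was at 0 in all 8. miR-124-3p had 30 counts over the 8 libraries and was at 0 in 3 of them, with its highest levels in PA 24 h (6.35 and 3.36 CPM). Fibroblast and endothelial markers, of which miR-126 made up most, summed to 1180 to 1565 CPM. Within them the stromal miR-143-3p was at 82.9 CPM in DMSO 3 h A and 90.3 in DMSO 24 h A, against 5.77 to 25.6 in the other 6 libraries, and miR-199a-5p at 29.4 and 44.2 against 1.24 to 12.5. These 2 DMSO libraries stand above their B partners in these 2 markers, and also in miR-145-5p and miR-199a-3p, but not in the whole list. miR-126-3p was at 499 CPM in DMSO 24 h A and 647 in B. miR-199b-5p was at 8.92 and 8.53 CPM in DMSO 3 h A and B, and highest in PA 24 h A (18.6). Whether the higher stromal markers of DMSO 3 h A and DMSO 24 h A bear on the 12 calls was not tested. Leaving out either library cannot show it, since its group then has no replicate. Entries that overlap tRNA, rRNA, U2 or snoRNA sequence summed to 3921 and 4071 CPM in DMSO 3 h, 4351 and 4542 in PA 3 h, 8232 and 6618 in DMSO 24 h, and 8779 and 10870 in PA 24 h. The sum was higher with PA without overlap at both times and higher at 24 h in both arms. Of the 7 members tested, 6 had differences below 0 and 0 passed. Their median difference was -0.33 (-0.59 with total counts), beside 0.07 (-0.20) over all entries, so the sum does not stand for these members. The part of the overlapping entries in the differences above was not tested.

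**Figure D4:**
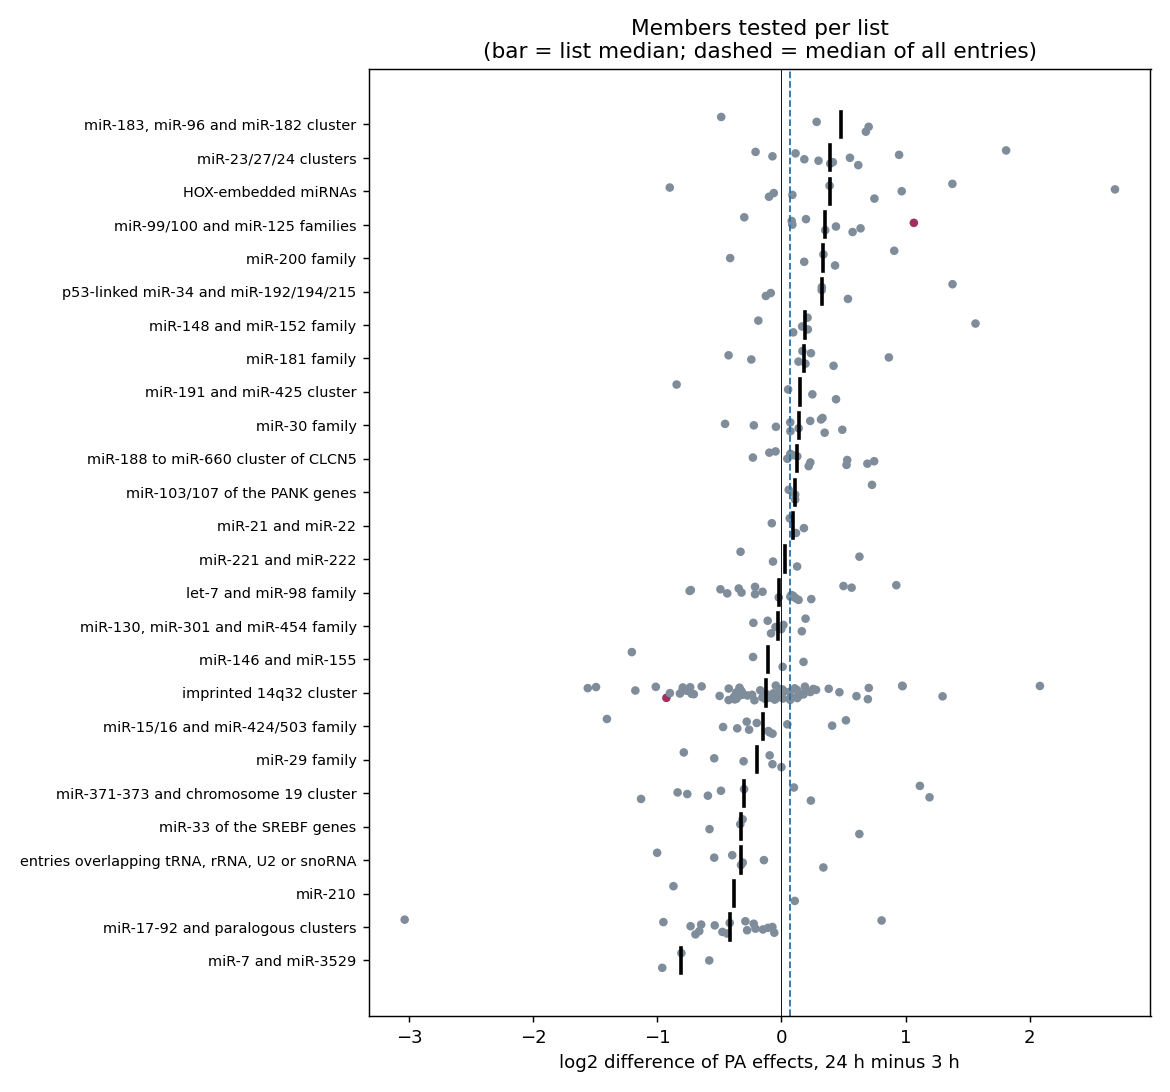
Log2 difference of PA effects (24 h minus 3 h, x axis) of each member tested, by group of miRNAs (y axis); black bars are the group medians, the dashed line the median of all 741 entries (0.07), and red points passed the test. Marker groups and miR-372-5p, a lower bound, are not drawn. The miR-17-92 and miR-7 groups lie to the left and the miR-23/27/24 and miR-99/100 groups to the right, with most points within 1 unit of 0.

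How firmly each of the 12 calls stands was read from 9 other settings and from leaving out each of the 8 libraries. chr8_19924, chr13_28163 and chr17_33942 passed in all 9 settings and all 8 leave-one-out fits, with differences of 5.13 to 6.51, 2.58 to 3.19 and 3.55 to 4.83. miR-6069 passed in 7 of the 8 settings that tested it and in 7 of 8 leave-one-out fits. miR-549a passed in all 9 settings but in 2 of 8 leave-one-out fits, and the remaining 7 entries in 1 to 3 of 8. miR-99a-5p, miR-154-3p, miR-3182 and miR-4310 passed in 4 or 5 of the 9 settings, and their adjusted p reached 0.291, 0.224, 0.194 and 0.108. In each of these fits every one of the 12 kept its direction. A fit with 1 library left out leaves a group without a replicate. For miR-549a and the remaining 7 entries except miR-6750-5p, the leave-one-out fits that passed were only those without a PA 24 h library.

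**Figure D5:**
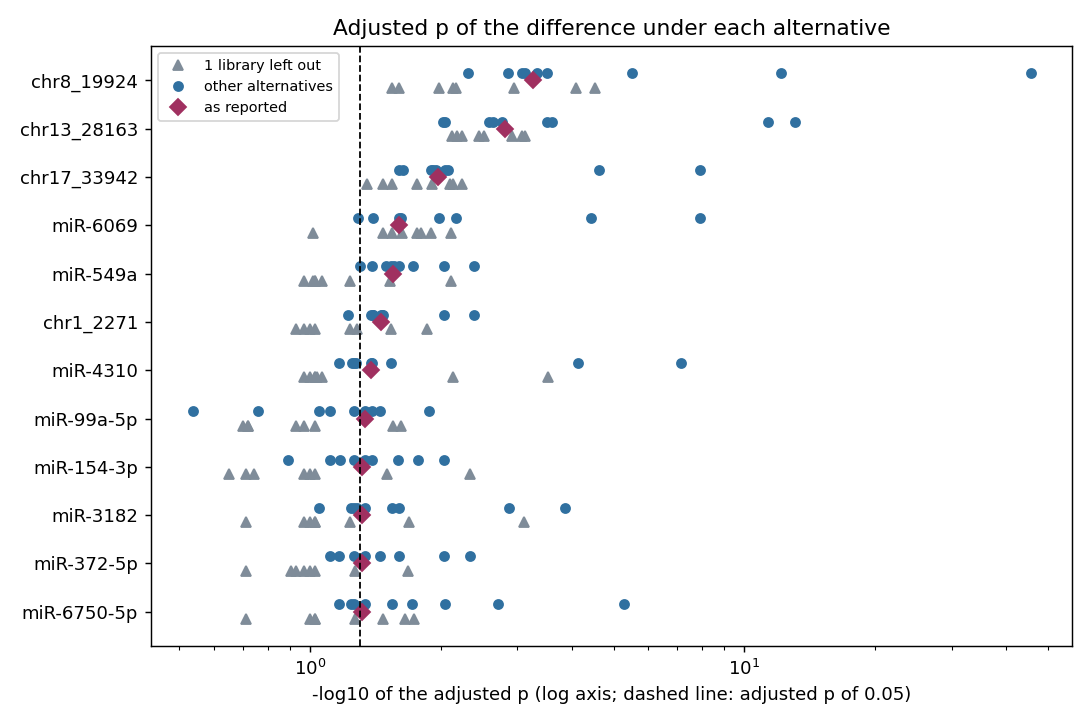
Adjusted p of the difference as -log10 (x axis, log scale) for the 12 entries under the reported fit (diamonds), the other settings (circles) and each fit with 1 library left out (triangles); the dashed line marks an adjusted p of 0.05. The 3 entries at the top keep every point to the right of the line, and the others have points on both sides.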

How the data were processed

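Small RNA libraries of PANC-1 cells were compared at 3 and 24 h of PA or DMSO. The authors deposited whole-number read counts per mature miRNA entry and library. Per the submitters' processing notes, bcl2fastq, Bowtie, edgeR and GRCh38 were used. Their versions and roles, the use of strand and the treatment of reads with several matches are not given in the sources used here. A deposited TPM table was not used, and 0 value columns were unmatched to a library. Entries with near-identical sequences can share reads, and 18 sets of entries held identical counts (none among the named calls).

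The test was edgeR's (version 4.0.16, with limma 3.58.1, in R 4.3.3): filterByExpr by group (minimum count 10, minimum total 15), TMM, glmQLFit with robust estimation and glmQLFTest on 8 libraries, giving 741 entries, 4 residual degrees of freedom and a common biological coefficient of variation of 0.169. The contrast was (PA 24 h minus DMSO 24 h) minus (PA 3 h minus DMSO 3 h). p-values were adjusted by Benjamini-Hochberg over all 741 entries at a threshold of 0.05. Tested entries held 99.85% or more of each library's counts. Figures use a pseudocount of 0.5 CPM. A group at 0 was set at 3 counts over the group, which covers counting error only, and PCR copies are not independent molecules.

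The comparison, the 31 lists and the naming rule were chosen with earlier results of these data known. The rule named the 10 largest entries that passed in each direction and the 5 most abundant, filled up to 10 by smallest p, and of each list the members that passed and the 4 most abundant. Lists are described by counts and medians, without a test. The code was tested on simulated data. A and B of different groups did not deviate together (correlations of -0.0951 to 0.0414), so the letters were not used to pair libraries. Alternatives were 2 other scalings, 2 other filters, fits with 10 or 14 libraries, no robust estimation, DESeq2 1.42.0, a replicate block, and leaving out each library. Of 638 named entries tested, 556 matched a RefSeq mature sequence (GRCh38.p14), and gene context came from GENCODE.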

Additional observations from a re-analysis of the deposited data

Results flagged for a closer look

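In 12 entries the PA effect differed between 24 h and 3 h by edgeR's test of the difference itself. The log2 differences that passed at an adjusted p under 0.05 were 6.05 for chr8_19924, 4.30 for chr17_33942, 2.89 for chr13_28163 and 2.20 for chr1_2271 among the unnamed entries. Among the named miRNAs they were 4.56 for miR-6750-5p, 2.77 for miR-549a, 2.42 for miR-4310, 1.82 for miR-3182, 1.07 for miR-99a-5p and -0.93 for miR-154-3p. The fitted values of miR-6069 (11.4) and miR-372-5p (8.02) come from groups with 0 counts, depend on the prior count of the fit and are no measure of size.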

How the results depend on the processing

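The reported fit called 12 entries for the difference, 83 for PA at 24 h and 1 for PA at 3 h. For the difference the count was 30 with no filter on low counts, 23 with DESeq2 and 6 without robust estimation. With a replicate block it was 6, and the block gave 52 at 24 h. The 24 h count was 54 with all 14 libraries. At 3 h it was 0 with total counts (18 at an unadjusted p under 0.05, edgeR), 3 with no filter, and 2 with DESeq2, with 14 libraries or with 10. Total counts split the 24 h calls into 36 higher and 58 lower, against 59 and 24. Size factors of the DESeq2 type gave 13, 79 and 1. A mean CPM of at least 10 gave 8 for the difference.

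Leaving out 1 library moved the count for the difference from 4 (without PA 3 h A, DMSO 24 h A or DMSO 24 h B) to 51 (without PA 24 h A). It was 29 without PA 24 h B, 6 without DMSO 3 h A, and 5 without DMSO 3 h B as well as without PA 3 h B. The 51 were 31 higher and 20 lower, and held all 12. The 24 h count ran from 30 (without DMSO 24 h A) to 132 (without PA 24 h A), with 42 without DMSO 24 h B, and the 3 h count from 0 to 1. In these fits the lone library is assumed to vary like the other groups. When either PA 24 h library was left out, the single 3 h call was another entry than chr8_19924. No named entry reversed. miR-6069, miR-372-5p and miR-6750-5p rest on groups with 0 to 4 counts per library, which limits the size given for them.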
